A study of Orbicella faveolata with 56 samples.

Results

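A rule for repeatable, coral-specific heat changes kept 2 genes out of 18668 genes with a mean level of at least 5 CPM and 87440 rows in the host table. CPM is a gene's count scaled to a library total of 1000000 counts. The rule took the 13 corals that have libraries used here at both temperatures and both transplant sites. For each it computed the heat change, log2(CPM + 1) at 32 °C minus that at 30 °C, once at the inshore and once at the offshore site. A gene was kept where these changes had a Pearson r of at least 0.8 across corals between sites, an SD of at least 0.5 at each site and both signs among the coral means, with at most 150 genes to be taken. The limit was never reached, since 2 genes passed, 0.0107% of those looked at. The kept genes are OFAVBQ_DN222534_c0_g1 and OFAVBQ_DN214885_c1_g1. The files give identifiers without gene names or sequences, so nothing can be said of what either gene encodes.

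The libraries come from fragments of Orbicella faveolata, a reef-building coral of the Caribbean listed as threatened in the title of the series. Inshore-origin corals were A3, A5 and A6, which share the genotype label In1, and B1 (In4), B2 (In5), B3 (In6), B4 (In7) and B6 (In2), from 3 collection sites. A3, A5 and A6 shared a collection site, as did B1 and B2, and as did B3, B4 and B6. Offshore-origin corals were C1 to C6, with genotype labels O1 to O6, all from 1 collection site, so origin and that site cannot be told apart. Each coral gave a fragment for each of 4 conditions: placed at an inshore or an offshore site, then brought to 30 °C (control) or 32 °C over 7 days and kept there for 6. Of 56 libraries 55 are used here: 8 inshore-origin libraries in each condition and 6 offshore-origin ones, except 5 at the inshore site at 32 °C, where the library of C3 was not used. Each value for a coral at a site and temperature therefore rests on 1 library. The samples are bulk tissue, in which fewer cells of a type and less RNA per cell cannot be told apart.

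A coral colony is an animal that shelters photosynthetic dinoflagellates in its gut-lining cells, and water a little above the summer maximum can break that partnership, which is seen as bleaching. Cells under heat are known to raise chaperones, antioxidant enzymes and immune signals, and colonies of one species are known to differ in how far they do so. A difference between genotypes in the response to an environment is called a genotype-by-environment interaction. Splitting one colony into fragments, as here, lets the same genotype be seen in several environments, although 2 fragments per temperature leave little room to separate a genotype's response from variation between fragments.

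The 55 libraries held 2850075 to 7239229 host counts, with a median of 5021488. In all, 9 libraries of 7 corals stood apart, with a mean correlation with the other libraries over 3 median absolute deviations below the median. They are A6, B6, B3, C1 and C3 libraries at 30 °C (both sites in B6, the inshore site in A6 and the offshore site in the others), B3 and B4 at the inshore site at 32 °C, and B1 at the offshore site at 32 °C. Over the 7 corals with no such library the r between sites was 0.893 for OFAVBQ_DN222534_c0_g1 and 0.999 for OFAVBQ_DN214885_c1_g1, the latter carried by C2 and C4 alone. Neither gene met the whole rule there, where 64 other genes did, since no coral mean of the first lay below 0 and the mean level of the second was 3.87 CPM. Fragments of one coral are the same animal, and the 3 In1 corals are of one genotype, so n counts fragments or colonies and not independent genotypes.

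Across all genes the heat changes of corals showed little agreement between sites. Of the 18668 genes, 4976 had an SD of at least 0.5 at each site, and 40.5% of these (2013 genes) had an r above 0. The median r was -0.067 in them and -0.046 over all 18668. With the sign turned, an r of -0.8 or lower and the other criteria kept, 7 genes passed, against the 2 with an r of 0.8 or higher. This reversed rule was added after the data were seen. For each of the 7 the r was weakest without coral B3 or A6, where it lay between -0.72 and -0.15. The r of the second kept gene fell likewise, to 0.748 without C4. Across the 4976 genes a coral's own changes at the 2 sites had an r of -0.63 in B3 and -0.54 in A6. In the other 11 corals this r ran from 0.023 in A5 to 0.751 in B6. B3, A6 and B6 all hold libraries that stand apart, and the part of these libraries was not tested. The median over the 13 corals was 0.127, against 0.070 between the inshore change of 1 coral and the offshore change of another. A test over all genes of whether the heat change differs between the 13 corals called 0 of 34923 genes (0% called; edgeR quasi-likelihood test, Benjamini-Hochberg adjusted, with 1205 genes at an unadjusted p under 0.05, 3.45% of those tested). DESeq2 was not run for it, and without the low-count filter edgeR called 2 of 82673 rows, neither of them a kept gene. The kept genes had an adjusted p of 1 in that test (edgeR), which uses the same changes as the rule and so adds nothing to it.

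**Figure D1:**
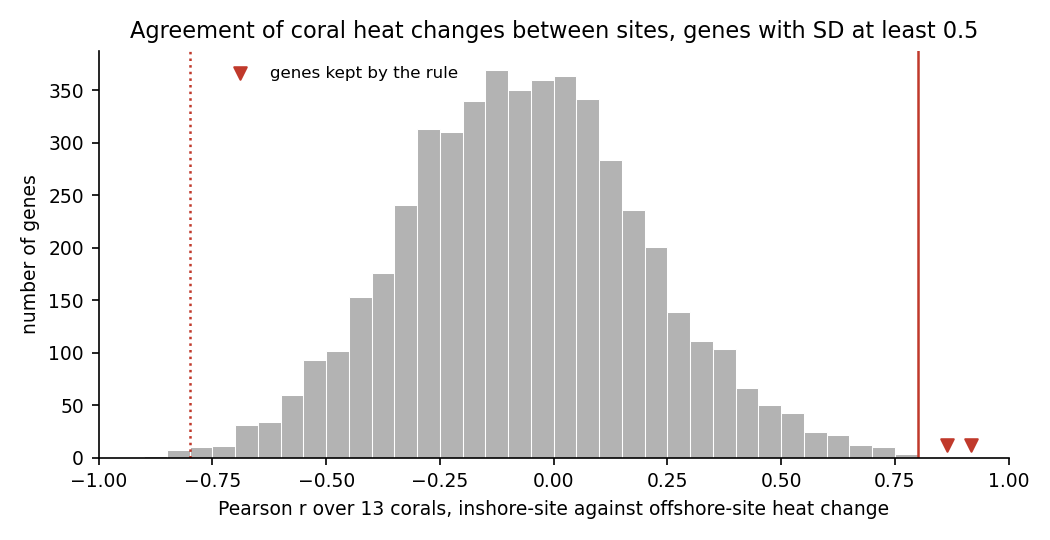
Number of genes (y axis) by Pearson r over 13 corals between inshore-site and offshore-site heat changes (x axis), for the 4976 genes with an SD of at least 0.5 at each site. The solid line marks the threshold of 0.8, the dotted line its mirror at -0.8, and the triangles the 2 genes kept, at 0.916 and 0.865.

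OFAVBQ_DN222534_c0_g1 was 2.57 to 4.69 times as high at 32 °C as at 30 °C in corals B2, C1 and C2, as means over sites, and lay closer to its 30 °C level in the other corals where it was detected in each library. Its r between sites was 0.916, with SDs of 0.684 at the inshore and 0.791 at the offshore site, and it was chosen by these values, so they and the changes below are a description without a test. In B2 the level was 13.3 CPM at 30 °C and 43.2 CPM at 32 °C at the inshore site, and 15.2 and 50.6 CPM at the offshore site. In C1 it was 8.51 and 29.3 CPM at the inshore site and 4.77 and 33.01 CPM at the offshore site. In C2 it was 7.38 and 19.5 CPM at the inshore site and 7.32 and 18.2 CPM at the offshore site. In each of these 3 corals both libraries at 32 °C lay above both at 30 °C. The inshore pair of C1 holds no library that stands apart, while its offshore pair holds one. As ratios of the means over sites, the levels at 32 °C were 3.29 times those at 30 °C in B2, 4.69 times in C1 and 2.57 times in C2.

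The 3 corals of genotype In1 and coral B1 had levels of 4.42 to 10.1 CPM at 30 °C and differed little between temperatures. In A3 the level was 10.1 CPM at 30 °C and 13.4 CPM at 32 °C at the inshore site, and 8.98 and 11.97 CPM at the offshore site. In A5 it was 8.12 and 10.7 CPM, then 7.13 and 8.20 CPM, in the same order. In A6 it was 9.22 and 10.6 CPM, then 8.77 and 10.8 CPM. A5 and C2 thus started at nearly the same level at either site, and at 32 °C C2 stood at 19.5 and 18.2 CPM where A5 stood at 10.7 and 8.20. The mean heat changes of A3, A5 and A6 were 0.38, 0.27 and 0.23 on the log2(CPM + 1) scale, a span of 0.148 within the genotype against 2.29 over all 13 corals. A span over 3 corals is smaller by its nature than a span over 13, and over all 18668 genes the medians were 0.326 and 1.01. B1 went from 5.77 to 7.12 CPM at the inshore site and from 4.42 to 5.52 at the offshore site, and C4 from 4.07 to 4.14 and from 2.81 to 4.01.

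In the remaining corals used by the rule the gene was at or near 0. B3 and C6 had 0 counts in all 4 of their libraries, which allows a level of up to 0.151 CPM in B3 and 0.136 CPM in C6 (3 counts of the coral's summed total, for counting error only). B4 had 1 count in all and C5 had 3. B6 had 6 counts in all, 2 in each library at 30 °C and 1 in each at 32 °C. The requirement of both signs was met only through B4 and B6, whose mean changes of -0.13 and -0.17 rest on these 1 to 2 counts per library. In the 8 corals with at least 3 counts in each library all mean changes were above 0, from 0.21 in C4 to 2.12 in C1, so these corals differed in the size of the change and not in its direction. Over the coral pairs of libraries, C3 at the offshore site included, the gene was higher at 32 °C in 18 of 27, lower in 4 and equal in 5.

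**Figure D2:**
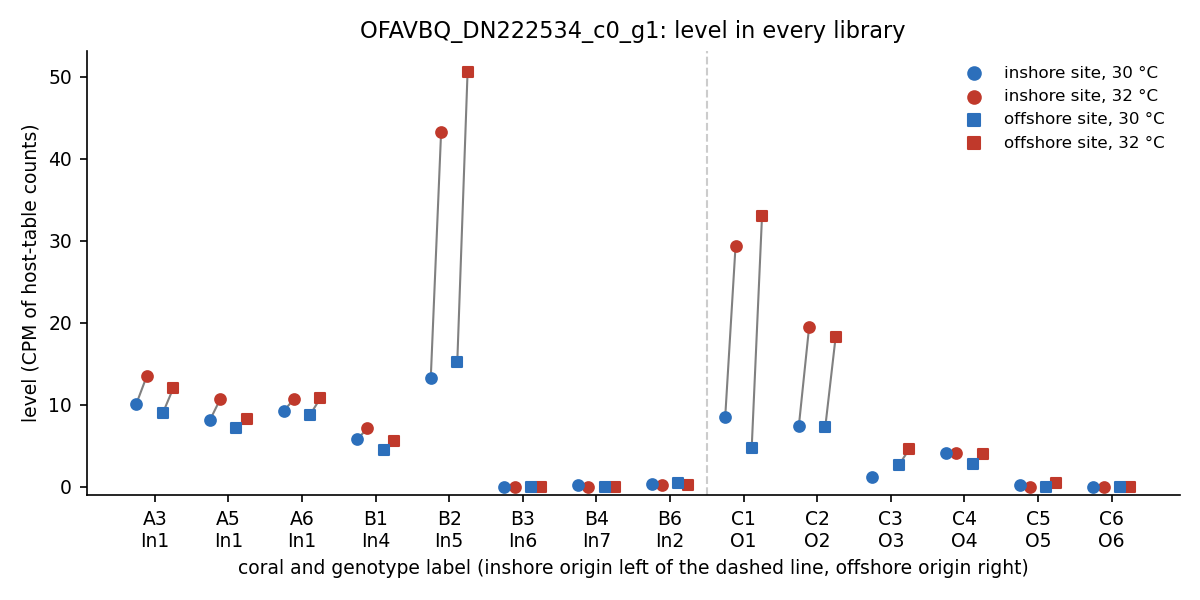
Level of OFAVBQ_DN222534_c0_g1 in CPM (y axis) in each of the 55 libraries, by coral and genotype label (x axis), with circles for the inshore and squares for the offshore site, blue for 30 °C and red for 32 °C, and a line joining the pair from one coral and site. Both lines are steep in B2, C1 and C2, short in the In1 corals, B1 and C4, and at the bottom in B3, B4, B6, C5 and C6.

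Counting error alone sets an interval on each of these ratios. In C2 the ratio of 32 to 30 °C was 2.64 at the inshore site (95% exact binomial interval 1.79 to 3.94) and 2.49 at the offshore site (1.73 to 3.67). In A5 it was 1.31 at the inshore site (0.846 to 2.05) and 1.15 at the offshore site (0.689 to 1.93). The intervals of C2 and A5 overlap slightly at both sites, while those of C1, 2.46 to 4.92 at the inshore site and 4.28 to 11.8 at the offshore site, lie apart from those of A5. These intervals leave out variation between fragments of a coral, which was not measured at a given site and temperature. The largest count of the gene in a library was 268.

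Coral C3 was not used by the rule because its library at 32 °C at the inshore site had no column that matched its label. At the offshore site its level of OFAVBQ_DN222534_c0_g1 was 2.64 CPM at 30 °C and 4.56 CPM at 32 °C, a ratio of 1.73 (95% exact binomial interval 0.813 to 3.98). Its only other library used here, at the inshore site at 30 °C, held 1.16 CPM. The gene was thus detected in C3, with a mean of 2.79 CPM over the 3 libraries used, the lowest of the 9 corals above 1 CPM in every library.

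OFAVBQ_DN214885_c1_g1 was higher at 32 °C in coral C4 and lower in C2 and B3, at both sites, so for this gene corals differed in direction. Its r between sites was 0.865, with SDs of 0.620 and 0.754, and it was chosen by these values too. In C4 the level was 2.64 CPM at 30 °C and 7.79 CPM at 32 °C at the inshore site, and 1.59 and 7.06 CPM at the offshore site. In C2 it was 26.7 and 11.8 CPM at the inshore site and 36.4 and 14.3 CPM at the offshore site. In B3 it was 5.57 and 2.33 CPM at the inshore site and 6.52 and 1.55 CPM at the offshore site. The 2 temperatures do not overlap in any of these 3 corals. Each pair of B3 holds a library that stands apart, and no pair of C2 or C4 does. The ratio of the means over sites, 32 to 30 °C, was 3.51 in C4, 0.413 in C2 and 0.320 in B3.

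In another 2 corals used by the rule this gene was detected without a repeatable change. B1 had the highest mean level over its 4 libraries, 24.7 ± 5.15 CPM (SD, n = 4), and went from 29.4 to 28.8 CPM at the inshore site and from 19.7 to 20.7 CPM at the offshore site. B6 went from 12.4 to 5.57 CPM at the inshore site but from 9.82 to 10.5 CPM at the offshore site. C3, which the rule did not use, went from 9.52 to 4.89 CPM at the offshore site (ratio 0.513, 95% exact binomial interval 0.305 to 0.857), the direction of C2 and B3. The remaining 8 corals had at most 1 count each in their summed libraries, and 7 of them had 0, which allows up to 0.166 CPM in the shallowest of them. The 3 In1 corals were all among those at 0, so they say nothing of its heat change.

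**Figure D3:**
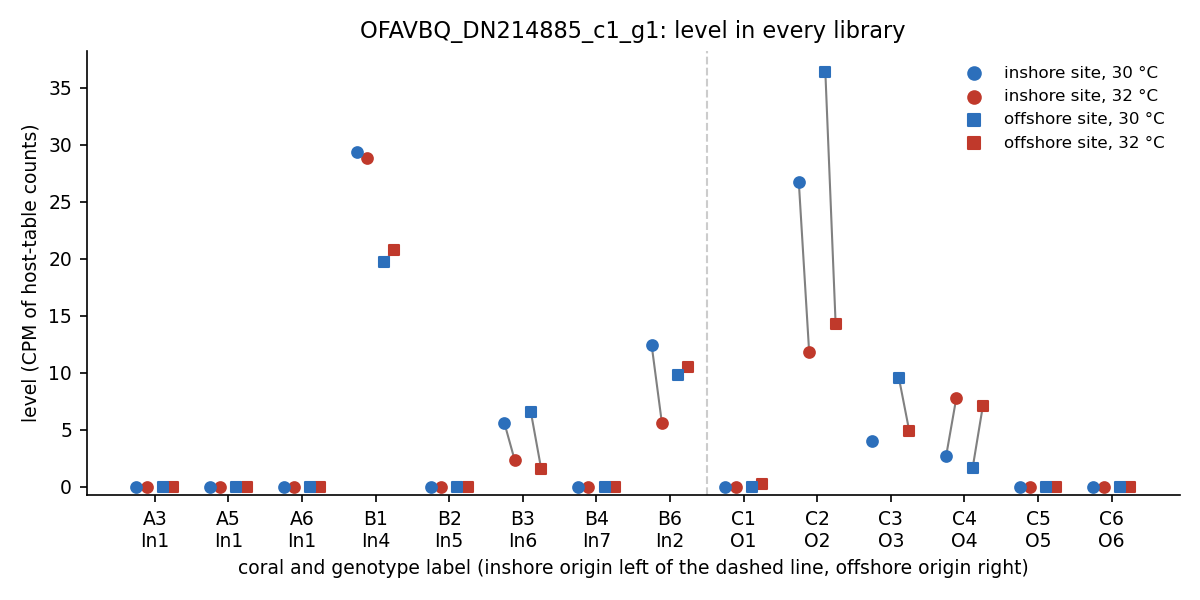
Level of OFAVBQ_DN214885_c1_g1 in CPM (y axis) in each of the 55 libraries, by coral and genotype label (x axis), drawn with the same symbols: circles for the inshore and squares for the offshore site, blue for 30 °C and red for 32 °C. The lines go down in C2 and B3 and up in C4, and 8 corals lie at the bottom with at most 1 count in all their libraries.

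For both genes 3 corals had large changes at both sites, and most of the others formed a cluster near no change. The rank correlation, which gives the corals near 0 the same weight, was 0.697 for OFAVBQ_DN222534_c0_g1 and 0.395 for OFAVBQ_DN214885_c1_g1. C1 deviated most from the median coral for the first gene (by 1.89 on the log2 scale), and without C1 the r was 0.910; leaving out any other single coral gave 0.902 (without B2) to 0.947 (without C5). C4 deviated most for the second gene (by 1.45), and without C4 the r was 0.748, below the threshold, while without B6 it was 0.986. Within the 8 corals that had at least 3 counts of the first gene in each library the r was 0.930, and within the 5 such corals of the second gene it was 0.871. The changes of the 2 genes were unrelated to each other, with an r of -0.032 between their mean changes over the 13 corals. C2 is the one coral with a large change of both, upward in the first gene and downward in the second.

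**Figure D4:**
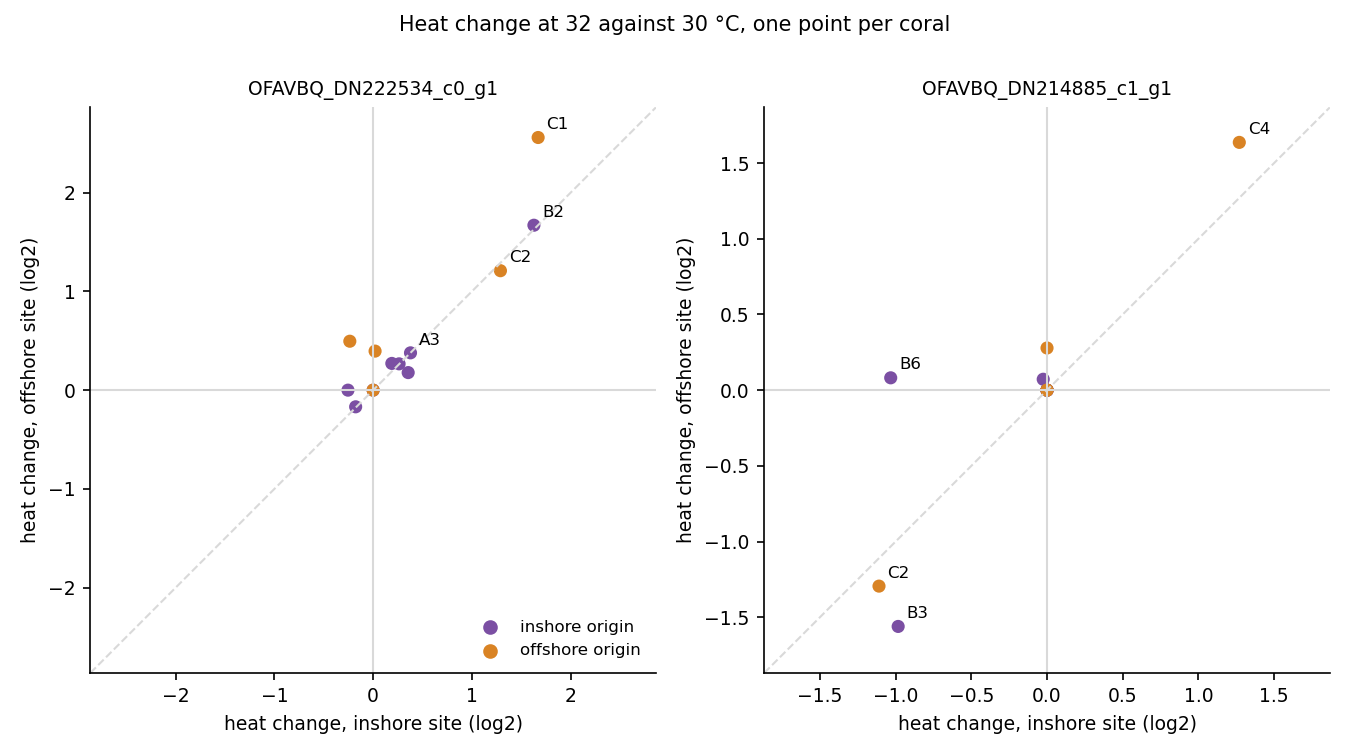
Heat change at the offshore site (y axis) against that at the inshore site (x axis), both as the log2(CPM + 1) difference of 32 minus 30 °C, for the 2 genes, with one point per coral, purple for inshore and orange for offshore origin and a dashed line where both sites are equal. C1, B2 and C2 stand at the top right in the left panel, and in the right panel C4 stands at the top right, C2 and B3 at the bottom left and the corals at or near 0 counts in the middle together with B1, while B6 lies to the left, lower at 32 °C at the inshore site alone.

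Both genes were at or near 0 in a set of corals. This is not independent of the rule, since the first gene met the requirement of both signs only through such corals. OFAVBQ_DN222534_c0_g1 was at 0 in 13 of 55 libraries and OFAVBQ_DN214885_c1_g1 in 31. Of the 18668 genes 93.6% were at 0 in no library, 1.40% were at 0 in at least 13 libraries and 0.246% in at least 31. The level of each coral repeated closely between sites at a given temperature. Over the 13 corals the r of log2(CPM + 1) levels between sites was 0.988 at 30 °C and 0.995 at 32 °C for the first gene, and 0.991 and 0.985 for the second. Corals at or near 0 and the other corals form separate clusters, so these values are given without a test. The SD between corals of the first gene's log2(CPM + 1) level, averaged over sites, was 1.54 at 30 °C and 2.07 at 32 °C, and for the second gene it was 1.96 and 1.76.

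Transplant site, a comparison that the rule did not use, did not change either gene past the threshold. Of 35219 genes tested 0.386% were called for a site difference, and 0 of the 2 kept genes. The site difference of OFAVBQ_DN222534_c0_g1, offshore minus inshore and averaged over origins and temperatures, was -0.068 ± 0.160 (log2 fold change, SE; adjusted p = 1, edgeR with coral as block). For OFAVBQ_DN214885_c1_g1 it was 0.15 ± 0.289 (SE; adjusted p = 1, edgeR). A difference between origins in the site effect was called for 0.324% of genes and again for 0 of the 2, with values of -0.035 ± 0.318 and -0.34 ± 0.580 (inshore minus offshore origin, log2, SE; adjusted p = 1 and 0.938, edgeR). To pass the threshold after adjustment over 35219 genes, a difference must be several SEs in size. Smaller site differences of either gene would have been missed.

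No difference between origins in the level of either gene passed the threshold, but the SEs are too wide to show that there was none. On counts summed per genotype, 6 against 6, the difference of OFAVBQ_DN222534_c0_g1 was -0.21 ± 1.46 and that of OFAVBQ_DN214885_c1_g1 was -0.27 ± 1.74 (offshore minus inshore origin, log2 fold change, SE; adjusted p = 0.994 for each, edgeR). Here 0% of the 39603 genes tested were called (0 genes, with 2038 at an unadjusted p under 0.05 and 59 called by DESeq2, neither kept gene among them). Both origins held genotypes in which each gene was near 0 and others in which it was not. The first gene was near 0 in B3, B4 and B6 of inshore and C5 and C6 of offshore origin, and the second gene in A3, A5, A6, B2 and B4 of inshore and C1, C5 and C6 of offshore origin. B3, B4 and B6 are all the corals of their collection site, so for the first gene genotype and collection site cannot be told apart among inshore corals. For the second gene the inshore corals near 0 came from each inshore collection site.

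Between the 8 groups of libraries no neighbours in the order of means differed beyond their SD, for either gene. These SDs are between corals, some of them at or near 0, and leave out that the same corals were seen at both temperatures. The group means therefore cannot decide whether a gene changed within corals. At 30 °C the first gene had, in corals of inshore origin, 5.88 ± 5.16 CPM after placement inshore and 5.61 ± 5.44 after placement offshore (SD, n = 8 for both), and in corals of offshore origin 3.55 ± 3.72 and 2.92 ± 2.82 (SD, n = 6 for both). At 32 °C it had 10.7 ± 14.2 and 10.9 ± 16.8 CPM in corals of inshore origin (SD, n = 8 for both), and 10.6 ± 13.2 (SD, n = 5) and 10.04 ± 13.1 (SD, n = 6) in offshore-origin corals. All 4 groups at 32 °C thus had higher means than the 4 at 30 °C, with ranges that overlap, since each group holds a coral at 0. The second gene ran from 3.92 ± 5.56 CPM (SD, n = 5) at 32 °C after placement inshore to 7.92 ± 14.4 CPM (SD, n = 6) at 30 °C after placement offshore, both in corals of offshore origin.

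The average heat change was used by the rule, which compares the same libraries, and is given as a description. Over all corals OFAVBQ_DN222534_c0_g1 was higher at 32 °C by 0.95 ± 0.161 (log2 fold change, SE) and OFAVBQ_DN214885_c1_g1 lower, at -0.30 ± 0.297. In the edgeR fit 1 of the 2, the first, was past the threshold, beside 3.24% of the 35219 genes tested, and without the coral block neither was. The heat change differed between origins by 0.75 ± 0.319 for the first gene and 0.45 ± 0.587 for the second (offshore minus inshore origin, log2, SE), with 0% of genes called (0 of 35219; 1759 at an unadjusted p under 0.05, and 2 by DESeq2). Of the 3 corals with the large changes of the first gene, C1 and C2 are of offshore and B2 of inshore origin.

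Rows that share the first part of an identifier, up to the number after DN, are looked at together here. They may be pieces or variants of one gene, which can split or share reads, or separate genes. OFAVBQ_DN222534_c0_g1 shares that part with 5 other rows, but has c0 where they have c1, so it need not belong with them. Of these rows 3 had a mean of at least 0.5 CPM and all were under the rule's 5 CPM, so the rule did not use them. These 3 rows had the same corals at or near 0: B3, B4, B6, C5 and C6. OFAVBQ_DN222534_c1_g2 followed the kept gene most closely, with an r of 0.904 between their mean changes over the 13 corals. In C1 it stood at 3.65 CPM at 30 °C and 16.4 CPM at 32 °C inshore, and at 1.26 and 18.9 CPM offshore. In B2 it stood at 5.93 and 14.3 CPM, then 12.4 and 23.3 CPM, and in C2 at 3.41 and 14.3 CPM, then 5.40 and 8.62 CPM.

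The heat changes of these rows are given without a test, since they were picked beside the kept gene and may share its reads. The average heat change was 1.03 ± 0.219 for OFAVBQ_DN222534_c1_g2, 0.98 ± 0.289 for OFAVBQ_DN222534_c1_g1 and 0.29 ± 0.158 for OFAVBQ_DN222534_c1_g3 (log2 fold change, SE, edgeR with coral as block). OFAVBQ_DN222534_c1_g2 was higher at 32 °C in 14 of 27 pairs, lower in 3 and equal in 10. The 3 lower pairs are A5 inshore, C3 offshore and C4 offshore. In B2 OFAVBQ_DN222534_c1_g1 went from 7.20 to 31.1 CPM at the inshore site and from 13.5 to 45.04 CPM at the offshore site, while in the other corals it stayed at 3.73 CPM or lower. B2 thus held relatively more of that row than C1 or C2 did. The 3 rows had r values between sites of 0.629, 0.644 and 0.611, below the rule's threshold.

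**Figure D5:**
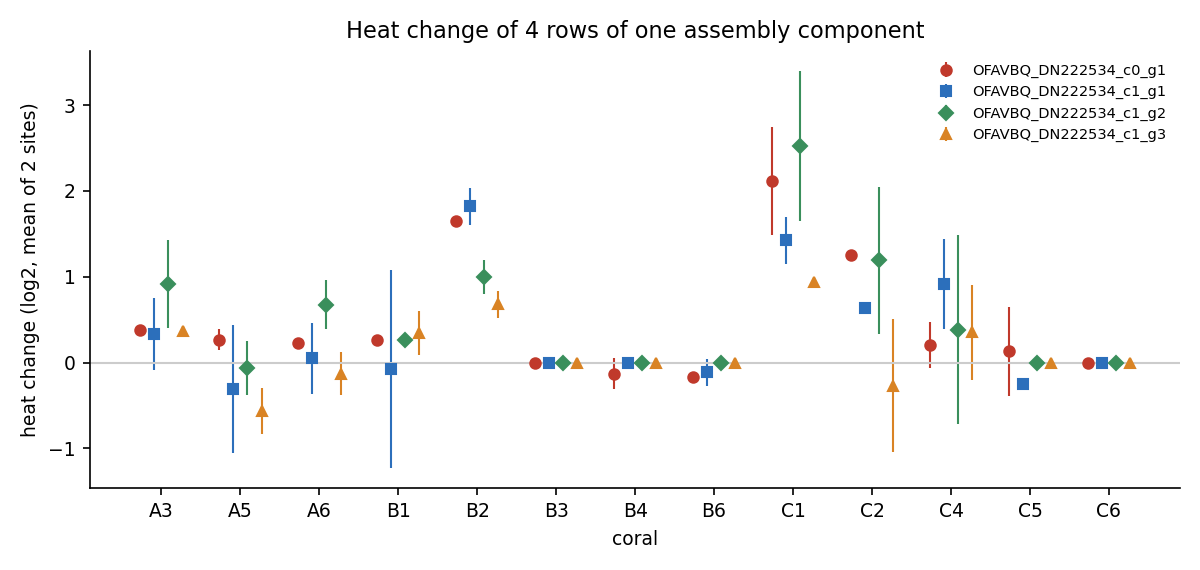
Heat change on the log2(CPM + 1) scale (y axis, mean of 2 sites, bars give the SD over the 2 sites) by coral (x axis) for OFAVBQ_DN222534_c0_g1 and 3 other rows. These are the rows above 0.5 CPM that share the first part of its identifier. The words "one assembly component" in the figure title stand for that shared part only. The kept row and OFAVBQ_DN222534_c1_g2 are highest in C1, OFAVBQ_DN222534_c1_g1 is highest in B2, and all 4 lie near 0 in B3, B4, B6, C5 and C6.

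OFAVBQ_DN214885_c1_g1 shares the first part of its identifier, and also c1, with 2 other rows, both at low levels. OFAVBQ_DN214885_c1_g2 had levels that went with the kept gene's over the 55 libraries (r 0.863), and its mean changes had an r of 0.466 with those of the kept gene. In the 3 corals with large changes of the kept gene this row had changes of the same sign at both sites, on the log2(CPM + 1) scale. They were -0.41 inshore and -0.65 offshore in C2, -0.30 and -0.06 in B3, and 0.29 and 0.14 in C4. In C3 it was -1.03 at the offshore site. B4 and C1, where the kept gene had at most 1 count, had mean changes of 0.73 and -0.45. The row reached 3.81 CPM at most, in C2, and 0.974 CPM in C4. OFAVBQ_DN214885_c1_g4 was detected in corals where the kept gene was at 0, such as B2 with 1.69 to 3.06 CPM, and its mean changes had an r of -0.41 with those of the kept gene.

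The genes just outside the rule show what its limits removed. On r, the next gene with both SDs of at least 0.5, OFAVBQ_DN200429_c0_g1, had 0.769, against 0.865 for the second kept gene. Lowering the threshold to 0.7 added 14 genes with r of 0.701 to 0.769 and mean levels of 6.06 to 101 CPM. Of these 14, 8 were at 0 in no library. For 11 of the 14 the most deviating coral lay below the median, unlike both kept genes, and without that coral the r ranged from -0.077 to 0.709, with 2 of the 14 still at 0.7 or more. On SD, 4 genes had an r of 0.805 to 0.876 but SDs of 0.179 to 0.457 over corals, so their changes were smaller. These 4 were at 0 in no library, with mean levels of 11.7 to 49.6 CPM, and kept an r of 0.738 to 0.857 without their most deviating coral. On level, 11 rows with a mean of 0.195 to 2.89 CPM met every other criterion, and each was at 0 in 5 to 41 libraries.

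Library numbers go with temperature in part, since numbers 1 to 16 are all at 30 °C and 17 to 56 hold both temperatures, and the labels do not say what a number stands for. Their part in the heat changes was not tested. Among the 3 corals with large changes of the first gene, both 30 °C libraries of C1 have numbers up to 16 (11 and 5), as have one of B2 (10, inshore) and one of C2 (3, offshore). The other pair of B2 has numbers 22 and 32 (15.2 and 50.6 CPM), and that of C2 has 50 and 35 (7.38 and 19.5 CPM). For the second gene both pairs of B3 (numbers 36 and 19, then 40 and 34), the inshore pair of C2 and the offshore pair of C4 (51 and 42) have numbers above 16, while the offshore pair of C2 and the inshore pair of C4 have a 30 °C library numbered 3 and 7.

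Counts in a second table, named for the symbiont species trenchii, are another readout of the same libraries. The table stands for that species alone, so a low share does not show that a coral held few symbionts. Corals C1 and C2 held a trenchii share of 20.1% and 22.5% of all counts at the inshore site at 30 °C, and 5.08% and 12.9% there at 32 °C. In their offshore-site libraries the share was at most 0.164%. The first gene was higher at 32 °C at both sites in these corals. B2, with the same change, held 21.5% to 25.1% in all 4 libraries. The ratio of trenchii to host counts was compared on a log2 scale, as the mean over sites of 32 minus 30 °C. It differed by -0.25 in B2, -1.54 in C1 and -0.63 in C2, and by -0.81, 0.12 and 1.73 in A3, A5 and A6. In the corals with large changes of the second gene it differed by 0.22 in C4, -0.63 in C2 and -0.93 in B3. The means of A5, B3 and C4 join opposite signs at the 2 sites. From 30 to 32 °C the log2 ratio in B3 went from -5.35 to -7.79 inshore and from -9.84 to -9.27 offshore. In C4 it went from -1.45 to -1.68, then from -9.08 to -8.42, and in A5 from -3.79 to -3.21, then from -8.58 to -8.92. In the other corals named the sign was the same at both sites. No correlation with the trenchii ratio is given, because the corals fall into separate clusters for both genes. The part of the symbiont in the heat changes was not tested.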

How the data were processed

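RNA from coral fragments was sequenced with a stranded mRNA kit, per the labels' protocols. The deposited tables hold estimated counts per transcript-assembly row, 1 table for the coral and 1 for the symbiont species trenchii. Of the host values 74.7% are whole. Per the submitters' processing notes Trimmomatic 0.36 and RSEM were used, yet both tables carry the name kallisto, so which tool gave the counts is not settled; its version and the assembly were not given in the sources used here. Counts that cannot be placed between similar rows are split by such tools, so rows of near-identical copies are uncertain. Of 56 columns per table, 55 matched a label; 1 did not and was not used.

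CPM was each count over its column sum, and the rule used log2(CPM + 1). For tests the estimated counts were rounded to whole numbers and fitted with edgeR 4.0.16 in R 4.3.3 (TMM, minimum count 10, quasi-likelihood F test, Benjamini-Hochberg over all genes tested, threshold 0.05), with coral as block, on all 55 libraries; SEs are the fold change over the root of F. Coral-by-heat differences used the 13 complete corals and origin used counts summed per genotype. The fits were also run on simulated counts with planted changes. Apart from these changes each simulated gene had the same level in all corals, so the simulation does not stand for genes near 0 in some corals. Alternatives were RLE size factors, DESeq2 1.42.0, no count filter, no block, and leaving out each coral or genotype. Samples with 1 coral name are fragments of 1 colony, so the pairing comes from the labels; deviations of same-coral libraries correlated at 0.398 to 0.775. No 2 libraries of one group, which come from different corals, agreed within counting noise (lowest chi-square per degree of freedom 4.00). Intervals are exact binomial at 95% and cover counting error only.

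The members and lists were chosen with earlier results of these data known. Genes named are the 2 kept, the rows that share the first part of their identifiers and the next gene on r. The last 2 kinds were chosen after their values were seen. Gene lists of heat response could not be applied, since identifiers carry no names.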

Additional observations from a re-analysis of the deposited data

Results flagged for a closer look

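Of 16 combinations of gene and group, 6 had 1 library far from the others of its group by Dixon's criterion, which chance meets in about 1 of 20 groups of normally distributed values. These groups mix corals at 0 with others and share corals, so that share need not hold here and the 6 are not independent. OFAVBQ_DN222534_c0_g1 stood at 43.2 CPM in B2 among corals of inshore origin placed inshore at 32 °C, where the next coral had 13.4 CPM, and at 50.6 CPM in B2 at the offshore site at 32 °C, where the next had 11.97 CPM. OFAVBQ_DN214885_c1_g1 stood at 29.4 CPM in B1 among corals of inshore origin placed inshore at 30 °C (next 12.4) and at 28.8 CPM in B1 at 32 °C there (next 5.57). Among offshore-origin corals at 30 °C it stood at 26.7 CPM in C2 at the inshore site (next 3.96) and at 36.4 CPM in C2 at the offshore site (next 9.52).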

How the results depend on the processing

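The number of genes kept by the rule moved with its limits. It was 0 with a mean of at least 10 CPM, 13 with no minimum level, 1 with Spearman's rho (neither of the 2), 16 with r of at least 0.7, 9 with the In1 corals averaged and 64 without the corals that have a library standing apart (neither of the 2). The 64 rest on 7 corals, over which an r of 0.8 is reached more easily than over 13. Settings chosen after seeing the data gave 9 with at least 1 CPM, 4 with at least 2 CPM, 6 with no minimum SD and 7 with r of -0.8 or lower. Pseudocounts of 0.5 and 2 and TMM totals gave 3 each. Leaving out 1 coral gave 2 to 8 genes (8 without A6, 7 without B3, 5 without B4 or C6, 4 without B2), and without B1, B6, C2 or C4 only 1 of the 2 was among them. The gene lost was the second, whose mean level of 5.09 CPM lay just above the minimum of 5. Its r was still 0.864 without B1, 0.986 without B6 and 0.825 without C2, but 0.748 without C4.

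Without the coral block, which pairs the fragments of a coral, 0 of the 2 were called for average heat (first gene 1.28 on the log2 scale, adjusted p = 0.550, edgeR), the site-by-origin value of the first gene was 0.18 and the heat-by-origin value of the second was -0.46, both of opposite sign. Over all genes the unblocked fit called 37 against 114 for site by origin and 321 against 1140 for average heat. With 1 coral left out these were 49 (without C4) to 133 and 655 (without C6) to 1275, and average heat gave 743 with no count filter. The origin test called 2 genes without In1, neither of the 2 kept. The coral-by-heat test called 2 rows with no count filter. With 1 coral or genotype left out, values that changed sign ranged from -0.14 to 0.11 for site by origin of the first gene (without C3), and for the second from -0.74 to 0.21 for average heat (without C2) and -0.43 to 1.46 for heat by origin (without C4). The origin difference ranged from -0.93 to 1.06 in the first gene (signs changed without In5, O5 or O6) and from -1.66 to 0.95 in the second (without In4 or O6). None of these reversed values was past the threshold, and the causes were not tested. Low counts limit both genes: 13 and 31 of 55 libraries were at 0.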
